A study of Homo sapiens with 9 samples.

Results

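The secreted proteins described here are those a hepatocyte exports into plasma, together with alpha-fetoprotein, which marks the fetal liver. They comprise ALB, AFP, RBP4, AMBP, ITIH1, ITIH2, ITIH3, AHSG, FETUB and GC, and they were found by gene symbol in the array annotation. A probe set entered only where the annotation gave exactly 1 gene symbol and that symbol was on this list. The rule found 16 probe sets for 9 of the 10 genes, out of 11963 genes named in this way, and GC was not analysed here. The values are log2 signals from Affymetrix 3' expression arrays of HepG2, an established human hepatoma line that makes many plasma proteins. Each of 3 groups held 3 arrays, labelled as replicates 1 to 3. All cells were kept for the treatment in medium with serum freed of thyroid hormone, and RNA was taken at 24 h. The groups received vehicle, 10 nM T3 (triiodothyronine, the active thyroid hormone) or 10 nM GC-1. GC-1, or sobetirome, is a synthetic agonist with preference for the beta form of the receptor. Its inner ring carries methyl groups where T3 has iodine, its outer ring isopropyl for iodine, its rings are joined by a methylene group, and it ends in an oxyacetic acid. The labels do not say whether the replicates were separate cultures, so the p-values measure the spread between these arrays, which may be technical. HepG2 is 1 line of tumour origin, and it keeps AFP switched on, which adult hepatocytes do not.

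Hepatocytes make most plasma proteins and release them as they are made, without storing them. Albumin carries fatty acids and hormones, including thyroid hormone, and alpha-fetoprotein is its fetal relative. The genes of both stand side by side, and the fetal one is silenced after birth while the albumin gene stays on. Thyroid hormone acts through nuclear receptors that bind DNA beside target genes, and the liver is one of its main target tissues.

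Marker genes were read as values only, since probe sets differ in brightness for the same amount of RNA. The 6 hepatocyte markers APOA1, APOH, TTR, SERPINA1, TF and FGB had vehicle means from 11.6 to 14.2 on the log2 scale. Of 15 markers of other cell types 14 were measured, with vehicle means from 3.44 (LUM, fibroblast) to 12.5 (LYZ, leukocyte) and a median of 6.35. The brightest after LYZ were SFN of other epithelia (11.2) and COL1A1 of fibroblasts (9.19), and endothelial markers ran from 4.83 (CDH5) to 6.61 (VWF). The mean signal over these 14 ranged from 6.88 to 6.91 in vehicle, 6.80 to 6.90 in T3 and 6.88 to 6.92 in GC-1 arrays, and 1 of them, SFN, was called, at -0.24 with T3 and -0.28 with GC-1. Of the hepatocyte markers 1, FGB, was called, higher with each ligand. Array medians lay between 7.01 and 7.06, and the interquartile range was 2.99 and 2.97 on T3 replicates 1 and 2 against 2.83 to 2.88 on the other arrays. T3 replicate 3 stood apart within its group: it gave the highest T3 value in 9 of the 16 member probe sets (56.2%), against 38.5% of all probe sets. It was the highest of all 9 arrays in 7 of them (43.8%), against 16.5% of all probe sets. The part of this replicate in the results below was not tested beyond the fits without each array. That of array spread was not tested beyond those and a fit with the array's interquartile range as a covariate.

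Values of different probe sets cannot be ranked against each other, so each is compared only with itself across arrays. Differences were tested with limma over all 22215 probe sets that are not array controls. A probe set was called where the Benjamini-Hochberg adjusted p was under 0.05. With T3, 7 of the 16 member probe sets were called higher and 0 lower, from ALB, RBP4 (both of its probe sets), ITIH1, ITIH3, AHSG and FETUB. That is 43.8% of the members, where 4.00% of all probe sets were higher and 1.50% lower. With GC-1, 2 were called higher and 0 lower, in ALB and ITIH1, or 12.5% where 1.81% of all probe sets were higher and 0.986% lower. The median difference over the 16 was 0.14 log2 units with T3 and 0.09 with GC-1, beside -0.02 and -0.00 over all probe sets. The 3 T3 arrays lay wholly above or below the 3 vehicle arrays in 10 of 16 member probe sets (62.5%; 24.9% of all probe sets), and the 3 GC-1 arrays in 12 (75%; 26.5% of all). Both comparisons use the same 3 vehicle arrays, so they are not independent of each other. Several genes are represented by more than one probe set, and these are repeated readings of one transcript pool.

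**Figure D1:**
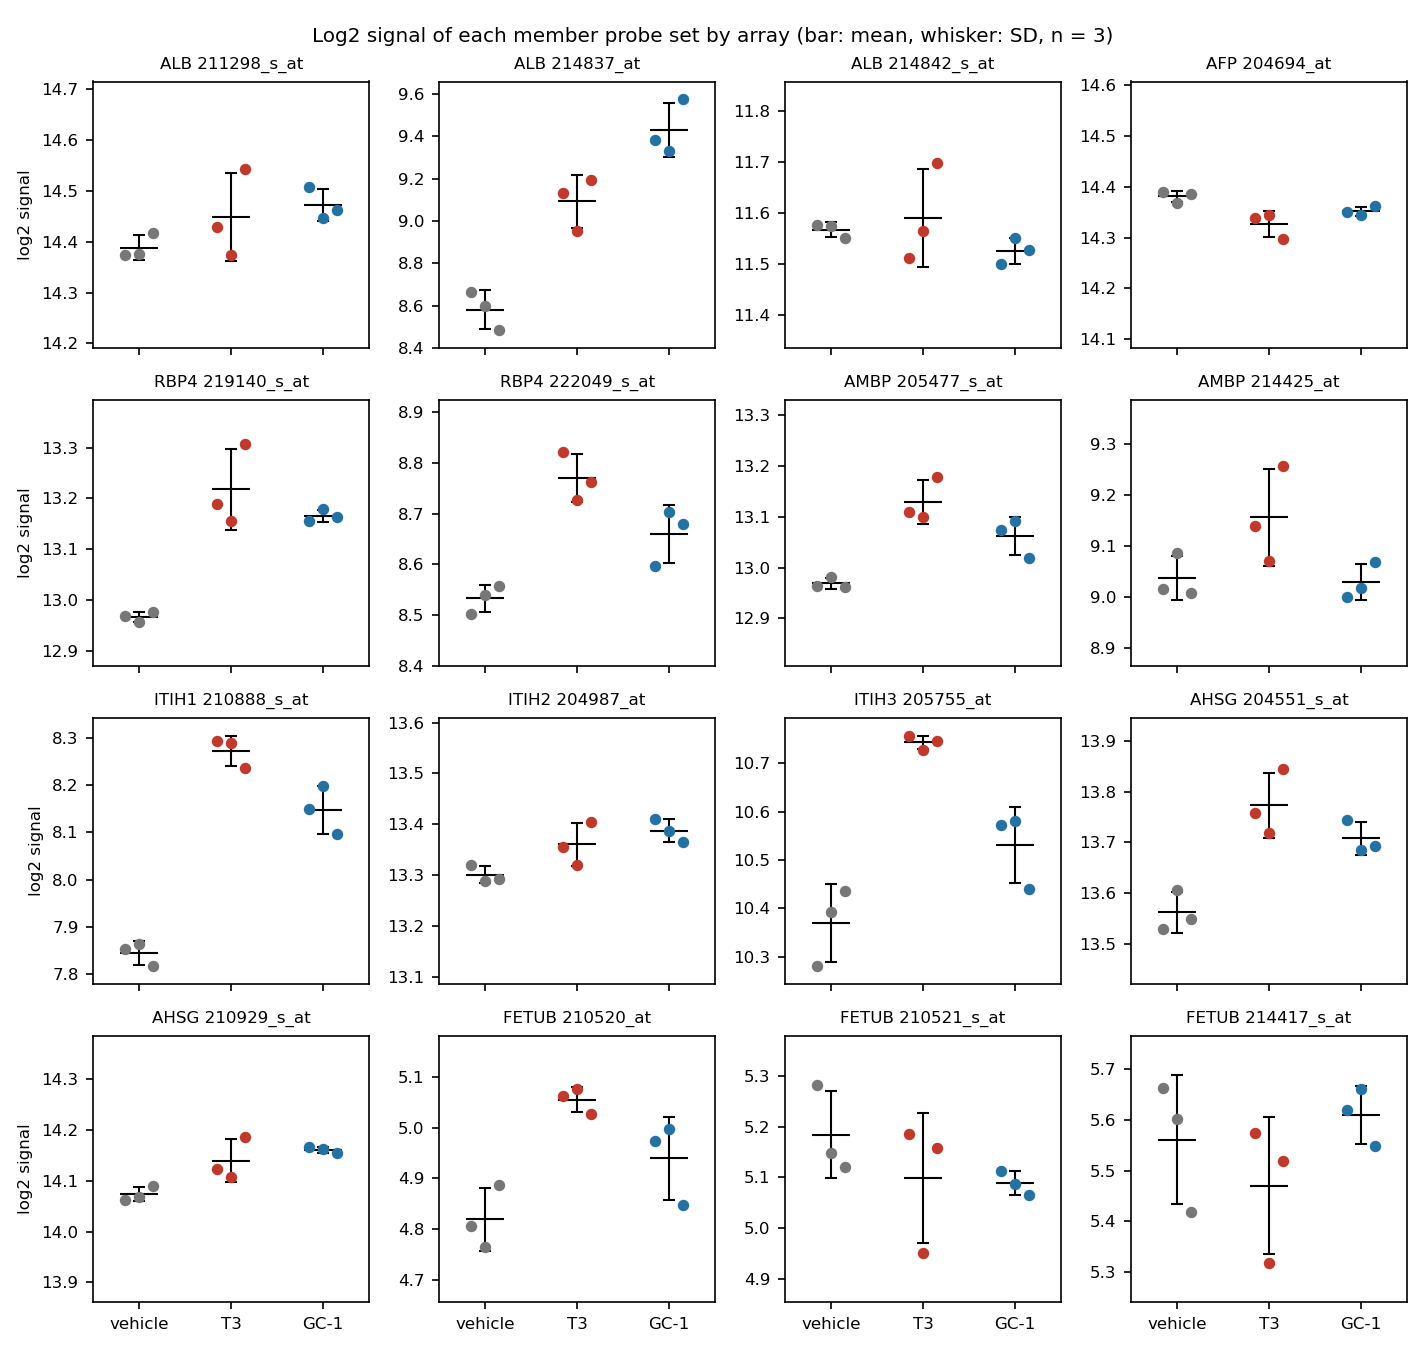
Log2 signal (vertical axis, scaled per panel and spanning at least 0.5 units) of the 16 member probe sets in vehicle, T3 and GC-1 arrays; points are replicates 1, 2 and 3 from left to right, the bar is the mean and the whisker the SD (n = 3). ITIH1 at 7.82 to 7.86 in vehicle and 8.24 to 8.29 with T3 shows a clear step, while AFP stays between 14.30 and 14.39 throughout.

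Albumin and alpha-fetoprotein are the adult and fetal carriers of one gene family. Promoter windows of both are shown because the genes are neighbours, and 1 albumin probe set was called while AFP was not. Each runs from 250 bases before to 50 after the gene start, from RefSeq, build GRCh38.p14. Capitals mark, on either strand, the HNF1 half-site GTTAAT, the CCAAT box, the TATA box TATAAA and the nuclear receptor half-site AGGTCA.
ALB, chr4:73404037-73404336, plus strand: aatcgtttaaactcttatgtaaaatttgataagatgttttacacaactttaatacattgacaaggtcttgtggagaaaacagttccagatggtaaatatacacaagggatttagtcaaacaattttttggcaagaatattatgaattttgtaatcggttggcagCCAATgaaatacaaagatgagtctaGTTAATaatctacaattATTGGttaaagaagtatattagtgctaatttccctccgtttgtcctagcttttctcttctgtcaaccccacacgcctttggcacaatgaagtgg
AFP, chr4:73435971-73436270, plus strand: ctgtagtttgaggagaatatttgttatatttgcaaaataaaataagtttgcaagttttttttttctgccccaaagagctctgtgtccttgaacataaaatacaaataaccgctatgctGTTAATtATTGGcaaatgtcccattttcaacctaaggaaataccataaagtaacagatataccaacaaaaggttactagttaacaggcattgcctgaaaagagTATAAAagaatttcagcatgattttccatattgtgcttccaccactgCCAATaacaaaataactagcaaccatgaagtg
Of the 10 genes 8 had at least 1 window in the table, 13 windows in all. Counted per window, since some genes have several that overlap, GTTAAT was found in 2 of the 13, those of ALB (61 bases before the start) and AFP (132 bases before), and in 6.88% of all 35116 windows of 300 bases. The TATA box was found in 5 of the 13, with AFP's at 29 bases before the start, and in 11.5% of all windows. Those 5 belong to 3 of the 8 genes, AFP, RBP4 and FETUB. Overlapping RBP4 windows hold the same stretch, so the window count repeats it and is no result about the members. CCAAT was found in 6 of the 13 and in 34.6% of all windows. A match describes the letters only.

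Albumin had 3 probe sets, and they did not move alike. In 214837_at the vehicle arrays read 8.67, 8.60 and 8.48, the T3 arrays 9.13, 8.95 and 9.20, and the GC-1 arrays 9.38, 9.33 and 9.58. The groups did not overlap, and GC-1 stood above T3, which stood above vehicle. With T3 it rose 1.43-fold (log2 0.51 ± 0.08 SE, n = 3 per group, limma adjusted p = 0.00395), and with GC-1 1.80-fold (log2 0.85 ± 0.08, limma adjusted p = 0.000181). In 211298_s_at the vehicle arrays read 14.37, 14.38 and 14.42, the T3 arrays 14.43, 14.37 and 14.54, and the GC-1 arrays 14.51, 14.45 and 14.46. Here T3 overlapped vehicle, GC-1 lay above it, and neither difference was called (0.06, adjusted p = 0.575; 0.08, adjusted p = 0.504). In 214842_s_at the vehicle arrays read 11.58, 11.58 and 11.55, the T3 arrays 11.51, 11.56 and 11.70, and the GC-1 arrays 11.50, 11.55 and 11.53. Both ligands overlapped vehicle (0.02, adjusted p = 0.851; -0.04, adjusted p = 0.789).

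The 95% intervals of the uncalled albumin probe sets bound the change of those probe sets alone. They ran from -0.06 to 0.18 in 211298_s_at and from -0.10 to 0.15 in 214842_s_at with T3, and from -0.04 to 0.20 and -0.16 to 0.08 with GC-1. The interval of 214837_at (0.33 to 0.69 with T3, 0.67 to 1.03 with GC-1) lies outside all of them. The annotation traces 214837_at and 214842_s_at to the same sequence record and 211298_s_at to another one. An s_at set can match several transcripts, while an at set is meant to match 1. The signal of 211298_s_at was at most 0.163 log2 units below the brightest probe set of its array, and it was itself the brightest on 2 of the 9. How far a signal this near the top of the array can still rise was not tested. The rise was thus measured in 1 of the 3 albumin probe sets, and the readings of the gene differed.

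AFP, the fetal counterpart of albumin and a serum marker of liver tumours, had 1 probe set. The vehicle arrays read 14.39, 14.37 and 14.39, the T3 arrays 14.34, 14.35 and 14.30, and the GC-1 arrays 14.35, 14.34 and 14.36. Each ligand's arrays lay below all vehicle arrays, by a narrow margin. The differences were -0.05 ± 0.04 with T3 (adjusted p = 0.530, interval -0.15 to 0.04) and -0.03 ± 0.04 with GC-1 (adjusted p = 0.822, interval -0.13 to 0.07). Neither was called, and this probe set also lay within 0.246 log2 units of the top of its array. The next gene of the cluster, AFM, which encodes the vitamin E carrier afamin, had a difference of -0.34 with T3 (adjusted p = 0.0653) and -0.10 with GC-1 (adjusted p = 0.682). Its probe set was dim, with means of 5.38 in vehicle, 5.03 with T3 and 5.28 with GC-1, and whether AFM was expressed was not tested.

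RBP4 and AMBP both belong to the lipocalins, small carriers of greasy molecules. RBP4 brings retinol from the liver to other tissues. In its probe set 219140_s_at the vehicle arrays read 12.97, 12.96 and 12.98, the T3 arrays 13.19, 13.16 and 13.31, and the GC-1 arrays 13.16, 13.18 and 13.16. All 6 ligand arrays lay above vehicle, with T3 replicate 3 the highest. It rose 1.19-fold with T3 (log2 0.25 ± 0.05, limma adjusted p = 0.0162), and had a difference of 0.20 ± 0.05 with GC-1 that was not called (adjusted p = 0.0713). The second probe set, 222049_s_at, read 8.50, 8.54 and 8.56 in vehicle, 8.82, 8.73 and 8.76 with T3, and 8.60, 8.70 and 8.68 with GC-1. Again both ligands lay above vehicle without overlap. It rose 1.18-fold with T3 (log2 0.24 ± 0.05, limma adjusted p = 0.0211), with 0.13 ± 0.05 for GC-1 (adjusted p = 0.253). Both RBP4 probe sets were thus called with T3, with nearly the same difference. Its partner in plasma, TTR, which also carries thyroid hormone, had 0.12 with T3 (adjusted p = 0.155) and 0.07 with GC-1 (adjusted p = 0.546).

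AMBP encodes 1 precursor that is cut into alpha-1-microglobulin, a lipocalin that clears haem, and bikunin, the protease inhibitor that joins the inter-alpha-trypsin complex. Probe set 205477_s_at read 12.96, 12.98 and 12.96 in vehicle, 13.11, 13.10 and 13.18 with T3, and 13.08, 13.09 and 13.02 with GC-1. Both ligands lay above vehicle, but neither difference was called (0.16 ± 0.05, adjusted p = 0.0805; 0.09 ± 0.05, adjusted p = 0.376). It is the member just outside the threshold for T3, while AHSG 204551_s_at, given below, is just inside it. The second, 214425_at, read 9.02, 9.09 and 9.01 in vehicle, 9.14, 9.07 and 9.26 with T3, and 9.00, 9.02 and 9.07 with GC-1. Both groups overlapped vehicle here (0.12, adjusted p = 0.264; -0.01, adjusted p = 0.973).

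The heavy chains ITIH1, ITIH2 and ITIH3 are joined to bikunin through a chondroitin sulfate chain and passed on to hyaluronan, which they stabilise in the matrix. ITIH1 and ITIH3 lie next to each other on chromosome 3 and ITIH2 on chromosome 10. ITIH1 read 7.85, 7.86 and 7.82 in vehicle, 8.29, 8.29 and 8.24 with T3, and 8.15, 8.20 and 8.10 with GC-1. The 3 groups did not overlap, with vehicle lowest and T3 highest. ITIH1 rose 1.35-fold with T3 (log2 0.43 ± 0.05, limma adjusted p = 0.000378) and 1.23-fold with GC-1 (log2 0.30 ± 0.05, limma adjusted p = 0.00675). ITIH3 read 10.28, 10.39 and 10.44 in vehicle, 10.76, 10.73 and 10.75 with T3, and 10.57, 10.58 and 10.44 with GC-1. The T3 arrays were far above vehicle and close together, while GC-1 replicate 3 barely cleared the highest vehicle array. ITIH3 rose 1.30-fold with T3 (log2 0.37 ± 0.06, limma adjusted p = 0.00346), and had 0.16 ± 0.06 with GC-1 (adjusted p = 0.198), not called.

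ITIH2 read 13.32, 13.29 and 13.29 in vehicle, 13.36, 13.32 and 13.41 with T3, and 13.41, 13.39 and 13.37 with GC-1. T3 touched the vehicle range and GC-1 lay above it, with differences of 0.06 ± 0.05 (adjusted p = 0.509) and 0.09 ± 0.05 (adjusted p = 0.405). The interval for T3, -0.04 to 0.16, lies below that of ITIH1 (0.32 to 0.54) and of ITIH3 (0.24 to 0.50), although no test set the genes against each other. Other family members in these clusters were measured too. ITIH4, beside ITIH3, had -0.02 with each ligand (adjusted p = 0.928 and 0.933). ITIH5, beside ITIH2, fell by 0.29 on the log2 scale with T3 (limma adjusted p = 0.0282) and had -0.16 with GC-1 (adjusted p = 0.264).

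The nuclear receptor half-site AGGTCA, a single copy of the element that thyroid hormone receptors read in pairs, was found in 2 of the 13 windows, those of ITIH3 and AMBP, and in 13.8% of all windows. Both windows are shown for that reason, with capitals as above.
ITIH3, chr3:52794546-52794845, plus strand: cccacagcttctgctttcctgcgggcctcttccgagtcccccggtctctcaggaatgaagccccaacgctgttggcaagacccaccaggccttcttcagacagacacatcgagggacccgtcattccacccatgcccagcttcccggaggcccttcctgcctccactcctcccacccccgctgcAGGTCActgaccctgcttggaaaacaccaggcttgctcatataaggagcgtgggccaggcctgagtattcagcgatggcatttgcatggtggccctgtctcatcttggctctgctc
AMBP, chr9:114078251-114078550, minus strand: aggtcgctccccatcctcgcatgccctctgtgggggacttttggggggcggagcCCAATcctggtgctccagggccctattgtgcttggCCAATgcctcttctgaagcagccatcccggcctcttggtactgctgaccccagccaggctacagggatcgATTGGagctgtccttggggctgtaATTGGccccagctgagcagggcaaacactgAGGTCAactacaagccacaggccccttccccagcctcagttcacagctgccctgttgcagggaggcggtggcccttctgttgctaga
The copy lies 66 bases before the start in ITIH3, called with T3, and 37 bases before it in AMBP, not called. A pair in the same direction with 4 bases between was found in 0 of the 13 and in 0.0199% of all windows. Inverted pairs, other spacings and copies with a mismatch were not searched for, so a copy shown here need not stand alone. The windows of ITIH1, RBP4, AHSG, ALB and FETUB held no copy, which says only that these letters are not in those windows. ITIH1, RBP4 and FETUB have windows at several starts. Whether any of the ITIH1 windows covers the start that HepG2 uses was not tested, so its promoter may not have been searched.

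AHSG and FETUB, the fetuins, are cystatin relatives encoded side by side on chromosome 3. AHSG, or fetuin-A, keeps calcium phosphate from precipitating and dampens the insulin receptor. Its probe set 204551_s_at read 13.53, 13.61 and 13.55 in vehicle, 13.76, 13.72 and 13.84 with T3, and 13.75, 13.69 and 13.69 with GC-1. Both ligands lay above vehicle without overlap. AHSG rose 1.16-fold with T3 in this probe set (log2 0.21 ± 0.05, limma adjusted p = 0.0387), and had 0.15 ± 0.05 with GC-1 (adjusted p = 0.190), not called. The second probe set, 210929_s_at, read 14.06, 14.07 and 14.09 in vehicle, 14.12, 14.11 and 14.19 with T3, and 14.17, 14.16 and 14.15 with GC-1. Its ligand arrays also lay above vehicle, yet the differences were small (0.07, adjusted p = 0.451; 0.09, adjusted p = 0.395), and it stood 0.337 to 0.470 log2 units below the top of its array.

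FETUB, or fetuin-B, is an inhibitor of the egg-hardening protease ovastacin, made by the liver. All 3 of its probe sets were dim, between 4.77 and 5.66 over the 9 arrays. In 210520_at the vehicle arrays read 4.81, 4.77 and 4.89, the T3 arrays 5.06, 5.08 and 5.03, and the GC-1 arrays 4.97, 5.00 and 4.85. T3 lay above vehicle and GC-1 overlapped it. The T3 difference was called (log2 0.24 ± 0.06, 1.18-fold, limma adjusted p = 0.0354) and that of GC-1 was not (0.12, adjusted p = 0.332). In 210521_s_at the vehicle arrays read 5.28, 5.15 and 5.12, the T3 arrays 5.19, 4.95 and 5.16, and the GC-1 arrays 5.11, 5.09 and 5.07. In 214417_s_at they read 5.66, 5.60 and 5.42, then 5.57, 5.32 and 5.52, then 5.62, 5.66 and 5.55. T3 overlapped vehicle in both, with a difference of -0.09 in each (adjusted p = 0.527 and 0.566), and for GC-1 the values were -0.10 (adjusted p = 0.560) and 0.05 (adjusted p = 0.836). Probe sets 210520_at and 210521_s_at trace to the same sequence record. Averaged over the 9 arrays, 8.79% to 18.9% of all probe sets had a lower signal than these on the same array. Whether the gene was expressed at all was not tested. Further along this cluster, HRG had 0.03 with T3 (adjusted p = 0.880). The probe set of KNG1, the kininogen gene, was higher by 0.31 (limma adjusted p = 0.0353) with T3 and had 0.25 with GC-1 (adjusted p = 0.118). Both were dim too, with vehicle means of 5.96 (HRG) and 5.77 (KNG1). The 25th percentile of the vehicle arrays was 5.84 to 5.85. Whether either gene was expressed was not tested.

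**Figure D2:**
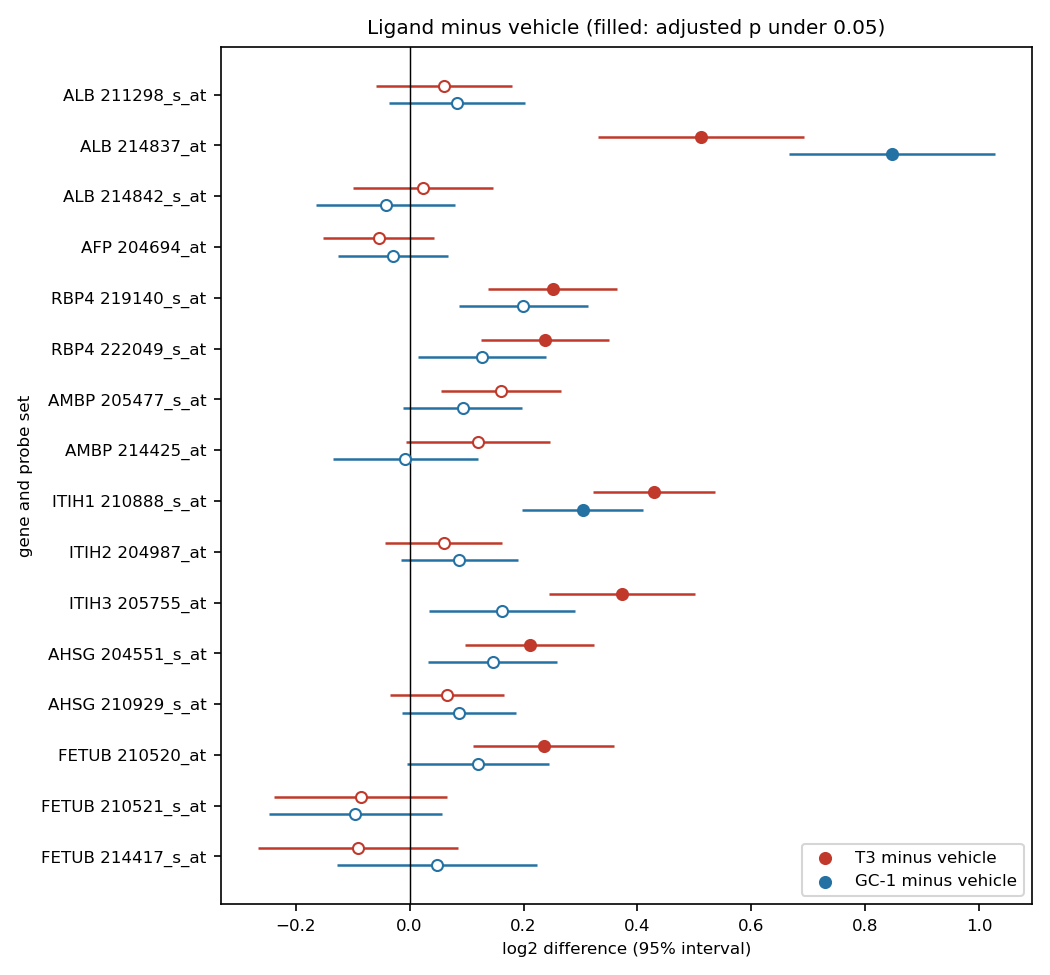
Log2 difference from vehicle (horizontal axis, with its 95% interval) for each member probe set, T3 in red and GC-1 in blue, filled where called. ALB 214837_at at 0.51 and 0.85 stands farthest right, and filled points number 7 for T3 and 2 for GC-1.

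How firmly these calls held varied with the probe set. With T3, ALB 214837_at, ITIH1 and ITIH3 were called in all 16 alternative fits, with adjusted p up to 0.0245, 0.00701 and 0.0219. RBP4 was called in 12 of 16 in 219140_s_at and 9 of 16 in 222049_s_at, AHSG 204551_s_at in 6 of 16, and FETUB 210520_at in 5 of 15. With GC-1, ALB 214837_at and ITIH1 were called in all 16, with adjusted p up to 0.00164 and 0.0453. The count of 7 for T3 fell to 3 without vehicle replicate 1, 2 or 3, and to 4 without T3 replicate 1. Without T3 replicate 3 it was 6. The T3 differences were then 0.46 in ALB 214837_at, 0.45 in ITIH1, 0.37 in ITIH3, 0.21 and 0.24 in RBP4 and 0.25 in FETUB 210520_at, all still called. AHSG 204551_s_at, at 0.18, was lost (adjusted p = 0.0646, with 0.000106 to 0.140 over its alternatives). In RBP4 219140_s_at the GC-1 difference of 0.20 was called in 6 of 16 alternatives (limma adjusted p from 0.000512 to 0.214 over all 16). The fit without T3 replicate 3 was among those that called it (limma adjusted p = 0.0191).

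**Figure D3:**
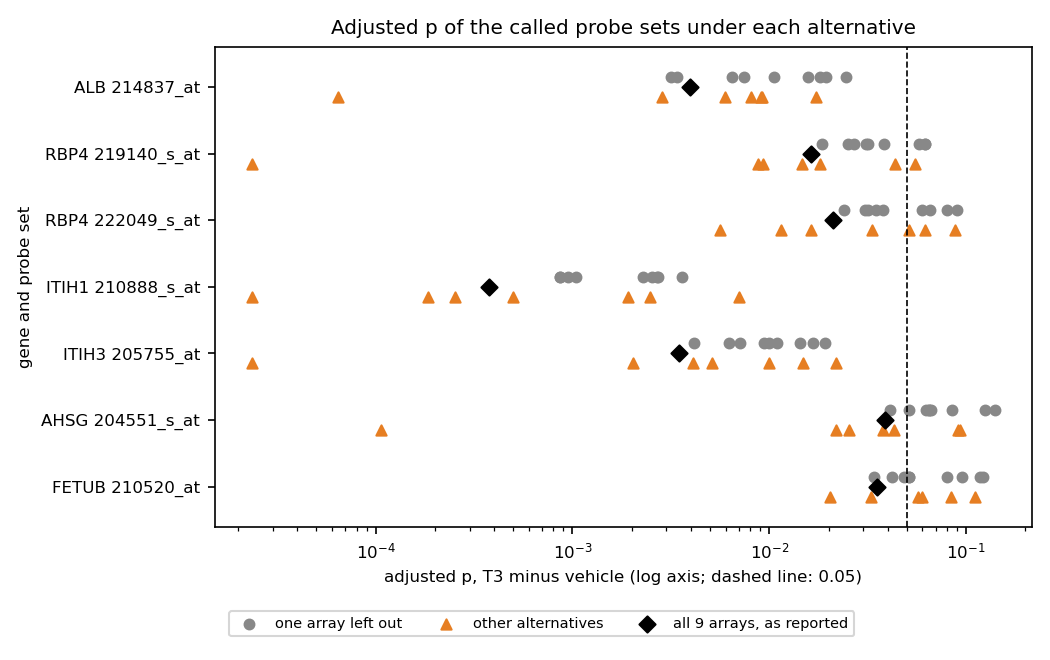
Adjusted p for T3 minus vehicle (horizontal log axis, dashed line at 0.05) of the 7 called member probe sets: black diamonds with all 9 arrays, grey points with 1 array left out, orange triangles for the other alternatives. ITIH1, ITIH3 and ALB 214837_at stay left of the line, and the points of RBP4, AHSG and FETUB fall on both sides of it.

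GC-1 was set against T3 directly at the matched 10 nM and 24 h, which is the 1 pair of compounds in the study. No member probe set was called, and 0% of all probe sets were called higher and 0% lower. In limma 3122 of all probe sets had an unadjusted p under 0.05 (14.1%), and 4 of the 16 members (25%). The eBayes trend and robust options called 22 probe sets in all and 0 members. The 3 GC-1 arrays lay wholly above or below the 3 T3 arrays in 7 of 16 member probe sets (43.8%; 18.0% of all), with GC-1 higher in 1 and lower in 6. The one with GC-1 higher was ALB 214837_at, by 0.34 ± 0.08 (interval 0.16 to 0.52, adjusted p = 0.198).

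ITIH3 was lower with GC-1 in value, by -0.21 ± 0.06 (interval -0.34 to -0.08, adjusted p = 0.213), and ITIH1 had -0.13 ± 0.05 (interval -0.23 to -0.02, adjusted p = 0.30). The same order held in RBP4 222049_s_at (-0.11, interval -0.22 to 0.00), FETUB 210520_at (-0.12, interval -0.24 to 0.01) and the AMBP probe sets (-0.07, interval -0.17 to 0.04; -0.13, interval -0.25 to -0.00). The other FETUB probe sets did not share it. GC-1 was higher in value in 214417_s_at (0.14, interval -0.04 to 0.31), and 210521_s_at had -0.01 (interval -0.16 to 0.14). In AFP, ITIH2, AHSG 210929_s_at and ALB 211298_s_at the difference lay between 0.02 and 0.03 and every interval held 0. All 16 intervals lay within a 1.5-fold difference in either direction. The members' median for GC-1 minus T3 was -0.06, beside -0.00 (just below zero) over all probe sets. Missing the threshold is no evidence of equal action on these genes.

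**Figure D4:**
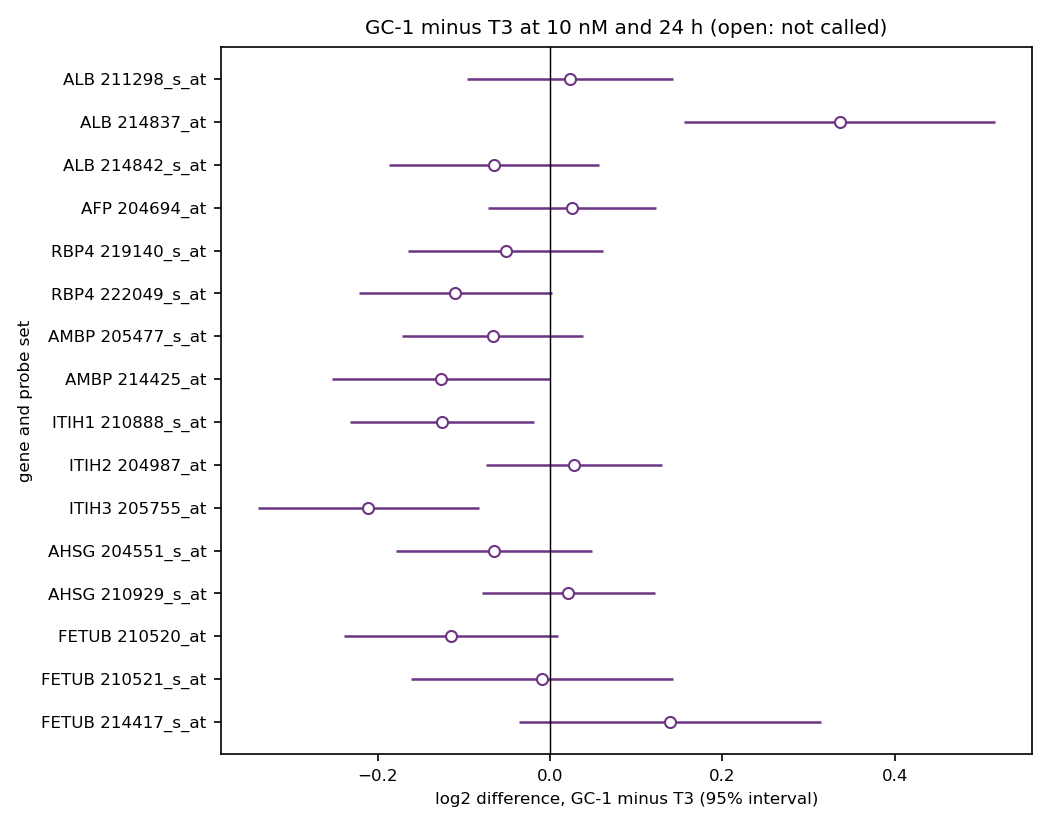
Log2 difference of GC-1 minus T3 (horizontal axis, with its 95% interval) for each member probe set, none of which was called. ALB 214837_at lies to the right at 0.34 and ITIH3 farthest left at -0.21, and the intervals of 4 of the 16 leave out 0.

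Other plasma proteins of the hepatocyte were counted beside the members, each gene by its brightest probe set. Of 39 listed 33 were measured, and with T3 12 rose and 1, ITIH5, fell, where 4.51% of all genes rose and 1.71% fell. Their median difference was 0.12, beside -0.02 over all genes. The members' median of 0.14 counts all 16 probe sets rather than 1 per gene, so the 2 medians are unlike measures. The brightest probe sets of ALB, AHSG and FETUB, at 0.06, 0.07 and -0.09, were not called with T3. With GC-1 5 rose and 0 fell, with a median of 0.08 and 2.10% of all genes rising. The leading genes in both comparisons were FGA and FGB, chains of fibrinogen, the haemoglobin binder HP and ORM1, a lipocalin of the acute phase. FGA rose by 0.86 log2 units with T3 and by 0.75 with GC-1. Relatives of the members in their own families (13 measured of 15) had 4 higher with T3, ORM1, CST3, KNG1 and C8G, and ITIH5 lower, beside the same 4.51% and 1.71% of all genes; ORM1, KNG1 and ITIH5 stand in the wider list as well. KNG1 was dim, as given above. With GC-1 2 of the relatives rose, ORM1 and CST3, beside 2.10% of all genes. CST3, cystatin C, belongs with the fetuins to the cystatin superfamily and rose by 0.27 and 0.22.

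Regulators known to act on the albumin and AFP genes were 30 in the list, 22 of them measured. With T3 5 rose and GATA6 fell, where 4.51% of all genes rose and 1.71% fell. With GC-1 3 rose and GATA6 fell, where 2.10% of all genes rose and 1.16% fell. CEBPB and CEBPA, activators of albumin transcription, rose by 0.81 and 0.48 with T3 and by 0.72 and 0.36 with GC-1. DBP, a factor named for its binding to the albumin promoter, rose 1.70-fold with T3 (log2 0.77 ± 0.10, limma adjusted p = 0.000811) and 1.71-fold with GC-1 (limma adjusted p = 0.00120). The others called with T3 were NFIC (0.27) and ZHX2 (0.30), the latter a repressor of AFP. GATA6, a factor of early liver growth, fell by 0.73 with T3 and by 0.68 with GC-1. The list's median was 0.11 with T3 and 0.05 with GC-1.

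Fetal liver and hepatoma genes, to which AFP belongs, numbered 24 in the list and 18 measured. None rose, and 3 fell with each ligand: the surface protein CD24, the tetraspanin TSPAN8 and the keratin KRT19. Of all genes 1.71% fell with T3 and 1.16% with GC-1. TSPAN8 fell by 0.41 on the log2 scale with T3 (limma adjusted p = 0.00241) and by 0.31 with GC-1 (limma adjusted p = 0.0221). KRT19 fell by 0.25 with T3 (limma adjusted p = 0.0425) and by 0.28 with GC-1 (limma adjusted p = 0.0410). The median was -0.11 with T3 and -0.13 with GC-1, beside -0.02 and -0.00 (just below zero) over all genes. AFP itself, at -0.05 and -0.03, and GPC3, the oncofetal glypican, at 0.13 and 0.05 (adjusted p = 0.137 and 0.649), were not called.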

How the data were processed

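The files the authors deposited hold log2 signals of each probe set on each array. The submitters' processing notes name RMA; its version is not given in the sources used here. The log base was inferred from the range of the values, and fold changes rest on it. The authors' values were used as deposited. The 62 array controls were left out. Of the 22215 other probe sets the array annotation gave 1 symbol for 19064, several for 1043 and none for 2108, and the Entrez identifiers of 19052 matched the reference table. No scanner files were used, so detection of single probe sets was not examined.

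Group means were compared with limma 3.58.1 in R 4.3.3 (lmFit, eBayes, two-sided) in 1 model over all 9 arrays, with Benjamini-Hochberg adjustment within each of the 3 contrasts over the 22215 probe sets. Intervals are 95% and come from this fit. The fit was tested on simulated data. The genes, the 6 pathway lists and the tests were chosen with earlier results of these data known. Every probe set of the listed genes is named, and from each pathway list up to 4 called genes with the smallest p, or 2 where none was called; NFIC, ZHX2, GPC3, TTR and the cluster neighbours were named after their values were seen. Alternatives were quantile normalization, a filter on the dimmest 25% of probe sets, eBayes with trend and robust options, array weights, only the groups compared, the replicate number as a block, the array's interquartile range as a covariate, and each array left out. No pair of arrays was identical (0 pairs). Sequences are from RefSeq, GRCh38.p14. The number of arrays limits the precision.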

Additional observations from a re-analysis of the deposited data

How the results depend on the processing

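The 7 member calls with T3 became 3 in a fit of the 2 groups alone and 4 with the replicate block, and 3 to 6 with 1 array left out. With the interquartile range as a covariate they became 5, without RBP4 222049_s_at (limma adjusted p = 0.0879) and FETUB 210520_at (limma adjusted p = 0.111). The 2 calls with GC-1 became 6 with the trend and robust options of eBayes and were 2 to 3 with 1 array left out. The replicate numbers were not shown to pair the arrays: deviations of arrays with the same number correlated from -0.262 to 0.0755 between groups, and the replicate block left 2 calls with GC-1 and 0 for GC-1 minus T3. No member was called for GC-1 minus T3 in any alternative, while 338 of all probe sets were without T3 replicate 3 and 22 with the trend and robust options. Over all probe sets the split of T3 calls, 888 higher and 334 lower, became 932 and 1152 with the interquartile range as a covariate and 816 and 438 after quantile normalization, and the 403 higher and 219 lower with GC-1 became 653 and 694 with the trend and robust options. GC-1 calls over all probe sets numbered 622, against 1435 with array weights, 1347 with the trend and robust options, 1061 in the 2 groups alone, 347 with the replicate block, and 274 to 1272 with 1 array left out. T3 calls over all probe sets numbered 1222, against 753 in the 2 groups alone, 773 with the replicate block, 2084 with the covariate, 1957 with the trend and robust options, and 661 to 1356 with 1 array left out. The cause of these changes was not tested. FETUB had no value under the filter on dim probe sets.

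The differences that changed sign were not called with all arrays. ALB 214842_s_at with T3 went to -0.00824 after quantile normalization, -0.0106 with array weights, and -0.0298 to 0.0637 with 1 array left out. AMBP 214425_at with GC-1 went to 0.0280 after quantile normalization and -0.0273 to 0.0175 with 1 array left out, and FETUB 214417_s_at with GC-1 to between -0.0227 and 0.0993. For GC-1 minus T3, the covariate turned ALB 211298_s_at to -0.116, AHSG 210929_s_at to -0.0474 and ITIH2 to -0.0379, and array weights turned FETUB 210521_s_at to 0.000983. Leaving out 1 array gave -0.0145 to 0.0700 in ALB 211298_s_at and -0.0828 to 0.0342 in FETUB 210521_s_at.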

Other observations

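Genes of retinol carriage and retinoid metabolism, the pathway that RBP4 feeds, had 20 of 26 listed genes measured. With T3 1 rose, DHRS3, a reductase that turns retinal back to retinol (log2 0.40 ± 0.07, limma adjusted p = 0.00879), and 0 fell. That is near the share of all genes that rose, 4.51%, and is no result about the list. With GC-1 0 were called, and DHRS3 had a difference of 0.23 (adjusted p = 0.151). The list's median was 0.01 with T3 and 0.05 with GC-1.

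A list of 23 genes held hyaluronan genes and partners of the inter-alpha-trypsin complex. It also held ITIH4, ITIH5 and ITIH6, relatives of the members, and the protease inhibitors SPINT1 and SPINT2. Of the 23, 19 were measured. CEMIP, a hyaluronan-degrading protein, fell with both ligands, by 0.93 with T3 and by 0.66 with GC-1. ITIH5, also counted in the plasma protein lists above, fell with T3. None rose. Of all genes 4.51% rose and 1.71% fell with T3, and 2.10% rose and 1.16% fell with GC-1. The list's median was -0.04 with T3 and -0.02 with GC-1.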
